A study of Mus musculus with 9 samples.

Results

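The genes of 6 transcription factors of epithelial-to-mesenchymal transition (EMT), Zeb1, Zeb2, Snai1, Snai2, Twist1 and Twist2, were followed in tumor cells of mouse pancreatic ductal adenocarcinoma (PDAC) with and without Yap. They were picked by symbol, through the Ensembl identifiers of the count files, and make up 6 of 47643 genes counted. KPF mice combined Trp53 frt/+ with Pdx-Flp and with R26 FSF-CreER/Dual, and KPYYF mice had Yap flox/flox in addition. In both, Flp driven by Pdx in the pancreas removed the frt allele of Trp53 and lit the EGFP part of the Dual reporter. A tamoxifen (TAM) diet given once tumors could be felt activated CreER, which swaps EGFP for tdTomato (Tm) and, in KPYYF mice, deletes Yap. RNA came from sorted GFP+ cells of KPF tumors (6 libraries) and from sorted Tm+ cells of KPYYF tumors (3 libraries). The KPF libraries have 5 mouse numbers, since 4504h and 4504s are both of mouse number 4504. The paper describes the mice of both groups, KPF and KPYYF, as TAM-treated. It names relapsed nodules as the source of the sorted cells, and it reports such nodules in KPYYF mice. Genotype, Yap status, recombined reporter and origin from a relapse therefore change together and cannot be told apart. The age of each mouse is not given in the sources used here.

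Zeb1 and Zeb2 carry zinc-finger clusters at both ends of the protein, Snai1 (Snail) and Snai2 (Slug) carry zinc fingers at the C-terminal end, and both families bind E-boxes in promoters of epithelial genes such as Cdh1 and repress them through corepressor complexes. Twist1 and Twist2 are basic helix-loop-helix (bHLH) proteins that bind E-boxes as dimers with E proteins such as Tcf3, Tcf4 and Tcf12. All 6 are known for lowering cell adhesion and polarity genes in development and in carcinoma, and in the pancreas they are mostly studied in poorly differentiated tumors and in stroma.

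The libraries were of even depth, with 8116539 to 9635514 reads on genes, and 3 counts were worth 0.291 to 0.436 CPM (counts per 1000000 of TMM-normalized library size). Yap1, the deleted gene, was at 41.7 to 150 CPM (lowest and highest of 6) in KPF libraries and at 0.711, 2.83 and 7.10 CPM in KPYYF libraries, and fell by 4.79 on the log2 scale (SE 0.72, adjusted p = 0.0159, edgeR quasi-likelihood test), a call lost without KPYYF library 4891 (adjusted p = 0.0553). Of 10 markers of pancreatic ductal tumor cells, all had a log2 fold change below 0 and 3 passed the test as lower, beside 0.794% of all genes tested. Their summed level was 677 to 2315 CPM in KPYYF and 3856 to 12610 CPM in KPF libraries. The 3 were Muc1, Krt18 and Cdh1, which are counted again below among epithelial genes that EMT factors repress. KPF library 4601 stood apart, with 11450 CPM summed over 14 macrophage markers against 498 to 1820 CPM in the 8 other libraries. Markers of acinar cells, which make digestive enzymes, were high in KPF library 4504s (20890 CPM) and KPYYF library 4449 (6288 CPM). In bulk libraries of this kind, fewer cells of one type and less RNA per cell cannot be told apart.

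Twist2 was the single member that passed the test over all genes, and it rose. All 6 members had a log2 fold change above 0, with a median of 1.07 against -0.07 over the 14105 genes tested, of which 46.7% were above 0. An adjusted p under 0.05 with a higher level in KPYYF cells was reached by 1 of the 6 members and by 0.305% of all genes tested. Snai1 and Twist2 were the 2 members in which every KPYYF library was above every KPF library, which held for 3.92% of all genes tested. An unadjusted p under 0.05 was reached by these 2 as well, where 6.1% of all genes tested were higher and 10% lower. With the cutoffs of the study's methods, an unadjusted p under 0.05 and more than 2-fold, applied here to edgeR's p in place of DESeq2's, the same Snai1 and Twist2 passed, beside 4.2% of all genes tested in that direction. These 2 are also among the transcription factors that the study chose on the same libraries, so their direction is not independent evidence.

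**Figure D1:**
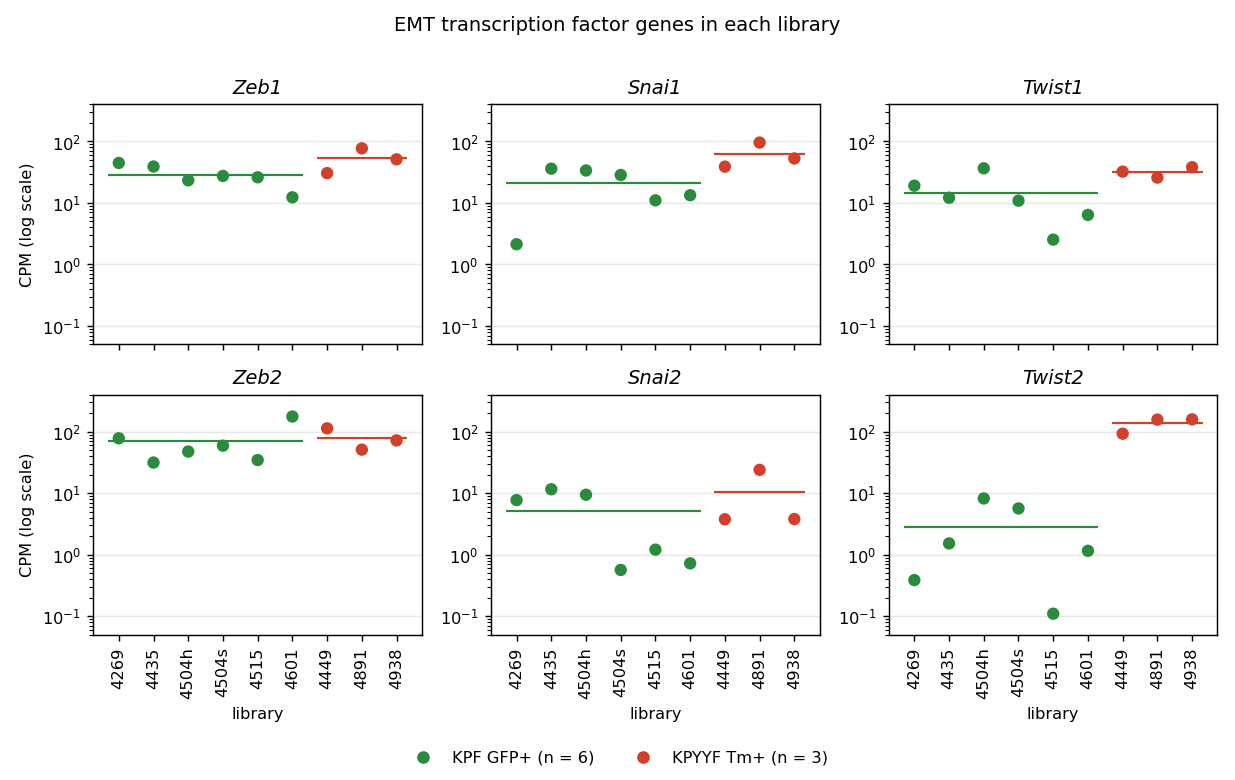
CPM (log scale) of the 6 genes in each library, with KPF GFP+ libraries in green (n = 6) and KPYYF Tm+ libraries in red (n = 3). Points are libraries and lines are group means; the 3 KPYYF libraries lie at 93.2 to 159 CPM for Twist2, where no KPF library is above 8.26 CPM, while the groups overlap for Zeb1, Zeb2, Snai2 and Twist1.

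Twist2 (ENSMUSG00000007805; GRCm38 chr1:91801461-91848028, plus strand), also called Dermo1, encodes a bHLH factor of mesenchyme, dermis and bone precursors. It was counted at 93.2 CPM in KPYYF library 4449, 158 CPM in library 4891 and 159 CPM in library 4938, and at 0.110 CPM (lowest), 1.35 CPM (median) and 8.26 CPM (highest) in the 6 KPF libraries. Every KPYYF library was high and every KPF library was low, and the lowest KPYYF value was 11.3 times the highest KPF value. The mean was 137 ± 37.8 CPM (SD, n = 3) in KPYYF and 2.86 ± 3.33 CPM (SD, n = 6) in KPF libraries. The log2 fold change was 5.57 ± 0.95 (SE, 95% interval 3.47 to 7.67), a 47.5-fold rise, with an adjusted p of 0.0277 in edgeR's quasi-likelihood test. Permuting the labels over its log2 CPM gave an exact p of 0.0119, the smallest that the 84 splits of 9 libraries allow.

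Among KPF libraries, Twist2 was not evenly low. Libraries 4504h and 4504s, both of 1 mouse number, held 8.26 and 5.68 CPM, and the other KPF libraries held at most 1.53 CPM. The summed level of 15 fibroblast markers was also highest in these same libraries, at 4403 and 5930 CPM, against 457 to 2532 CPM in the other KPF libraries. In the KPYYF libraries, where Twist2 was at 93.2 to 159 CPM, that sum was 1468 to 3697 CPM. The part of fibroblast RNA in the level of Twist2 was not tested. With 4504h and 4504s summed into 1 library, the log2 fold change of Twist2 was 6.00 (adjusted p = 0.0328). Xist, the transcript of the silenced X chromosome in female cells, had at least 1000 reads in all 3 KPYYF libraries and in 3 of the 6 KPF libraries. These 3 were 4435, 4504h and 4504s, and the last 2 share a mouse number, so they are not 3 separate mice. Between these 6 libraries the log2 fold change of Twist2 was 4.74 (adjusted p = 0.0369, edgeR quasi-likelihood test).

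The call on Twist2 depended on which libraries entered the fit. Its adjusted p was above 0.05 without KPF library 4435 (0.0712), without KPF library 4504s (0.0519), without KPYYF library 4891 (0.0654) and without KPYYF library 4938 (0.0777), although its log2 fold change stayed between 5.34 and 6.26 over the 9 fits that each left out 1 library. With no filter on low counts the adjusted p was 0.0716.

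The window around the annotated start of Twist2 is shown because this is the member that rose. It is RefSeq sequence of GRCm38.p6 on the plus strand, chr1:91801211-91801490, running from 250 bases before the start to 30 bases into the transcript. The hexamer searched for was the E-box CACCTG, read as CAGGTG on the other strand, and capitals mark it in this and the later sequences. This window holds none.
Twist2: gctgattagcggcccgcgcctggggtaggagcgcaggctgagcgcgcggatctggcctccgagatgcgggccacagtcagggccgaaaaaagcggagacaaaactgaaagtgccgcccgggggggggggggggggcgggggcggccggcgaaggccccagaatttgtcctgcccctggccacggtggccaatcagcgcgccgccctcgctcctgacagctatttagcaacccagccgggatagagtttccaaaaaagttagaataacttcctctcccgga

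The Twist2 locus gave a further measurement. Its coding sequence of 480 bases lies wholly in the first exon, which in the longer transcript is followed by an intron and by a non-coding second exon that starts 45.9 kb downstream. Inside that intron, on the same strand, the annotation places Gm29101 (ENSMUSG00000101414; GRCm38 chr1:91822515-91823985), a sense-intronic RNA gene of 1471 bases that starts 21.1 kb from the Twist2 start. Unspliced Twist2 RNA runs through the same bases on the same strand, so reads of Gm29101 cannot be told apart from it. Gm29101 was looked at after its values were seen. It was counted at 72.6, 62.8 and 42.1 CPM in KPYYF libraries 4449, 4891 and 4938, and at 0.194 CPM (lowest), 0.847 CPM (median) and 2.66 CPM (highest) in KPF libraries. The groups did not overlap, and the order within KPYYF was the reverse of that of Twist2, with library 4449 highest and library 4938 lowest. Its log2 fold change was 5.77 ± 0.76 (SE, adjusted p = 0.0141, edgeR quasi-likelihood test), it had the rank 3 by p among 14105 genes, and its adjusted p was at most 0.0389 under all 17 alternatives. Reads on Gm29101 were 43.8% (exact 95% interval 41.2 to 46.4%), 28.5% (26.5 to 30.5%) and 20.9% (19.1 to 22.8%) of the reads on both genes in KPYYF libraries 4449, 4891 and 4938, where the intervals cover counting error only. In single KPF libraries the share ran from 2.41% (4504h, 2 reads on Gm29101 and 81 on Twist2) to 75% (4515, 3 reads and 1 read), at counts too low to compare it with the KPYYF libraries.

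Gm29100, annotated on the opposite strand across the first exon of Twist2, had 7, 8 and 22 reads in KPYYF libraries 4449, 4891 and 4938 and no read in any KPF library, where 3 counts would have been 0.291 to 0.436 CPM. Its 37 reads were too few to be tested, and whether the counting used strand is not given in the sources used here, so that reads of Twist2 and of Gm29100 cannot be told apart with certainty.

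**Figure D2:**
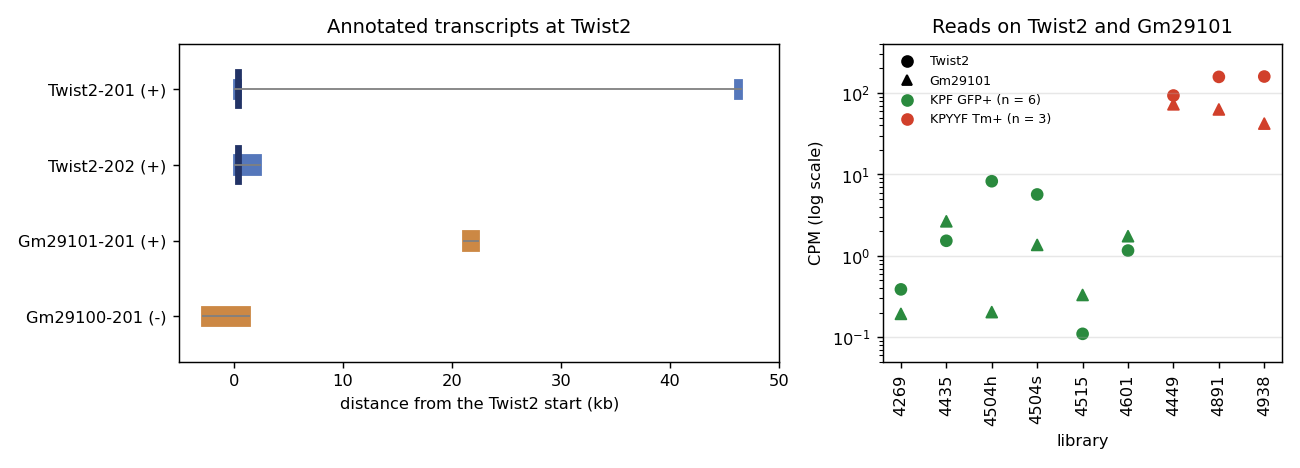
Left, annotated transcripts at Twist2 by distance from its start in kb (thin lines introns, boxes exons, tall dark boxes coding sequence, strand in brackets). Right, CPM (log scale) of Twist2 (circles) and Gm29101 (triangles) in each library, KPF green and KPYYF red; both genes are above 40 CPM in the 3 KPYYF libraries and below 9 CPM in the 6 KPF libraries.

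Twist1 (ENSMUSG00000035799; GRCm38 chr12:33957671-33959829, plus strand), the paralog, a bHLH factor of cranial mesenchyme and neural crest, did not pass the test. It was at 32.3, 25.8 and 38.1 CPM in KPYYF libraries 4449, 4891 and 4938, and at 2.54 CPM (lowest), 11.5 CPM (median) and 36.6 CPM (highest) in KPF libraries. The groups overlapped through 1 KPF library, 4504h, which was above the lower 2 KPYYF libraries, and the other KPF libraries were at or below 19.1 CPM. The log2 fold change was 1.13 ± 0.64 (SE, 95% interval -0.24 to 2.51, adjusted p = 0.415), and the exact permutation p was 0.0833. Without library 4504h it was 1.65 (adjusted p = 0.192).

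Within a library, the balance of both Twist genes was opposite in the groups. The log2 ratio of Twist2 to Twist1 was 1.52, 2.60 and 2.06 in KPYYF libraries 4449, 4891 and 4938, and -4.99 (lowest), -2.54 (median) and -0.92 (highest) in KPF libraries. All KPYYF libraries held more counts of Twist2 than of Twist1 and all KPF libraries fewer, a comparison that also carries the unequal capture of both transcripts and is read only as a change between groups. The difference of the mean ratios was 4.75 on the log2 scale, or 26.9-fold (exact permutation test, p = 0.0119, and 0.0357 after adjustment over the 3 paralog pairs). With 4504h and 4504s, of 1 mouse number, summed, it was 5.08 (exact permutation p = 0.0179, and 0.0536 after adjustment, which misses 0.05). With prior counts of 0.5 and 5 in place of 2 it was 5.04 and 4.41.

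In the other paralog pairs the difference between groups was within the spread between libraries. The log2 ratio of Zeb2 to Zeb1 was 0.60 ± 1.24 (SD, n = 3) in KPYYF and 1.15 ± 1.41 (SD, n = 6) in KPF libraries, with an exact permutation p of 0.631. The log2 ratio of Snai2 to Snai1 was -3.00 ± 0.90 (SD, n = 3) in KPYYF and -2.28 ± 2.38 (SD, n = 6) in KPF libraries, with an exact permutation p of 0.619.

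**Figure D3:**
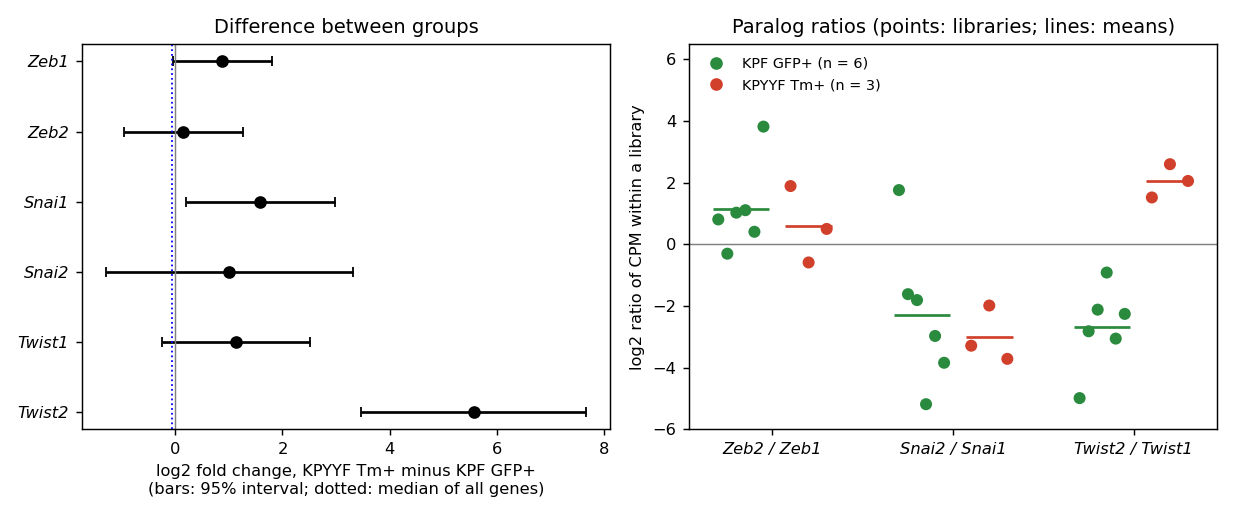
Left, log2 fold change of each gene, KPYYF Tm+ minus KPF GFP+, with its 95% interval; the dotted line is the median of all genes tested (-0.07), and the intervals of Snai1 and Twist2 lie wholly above 0. Right, log2 ratio of each paralog pair in every library (points) with group means (lines, KPF green, KPYYF red); Twist2 over Twist1 is above 0 in the 3 KPYYF libraries and below 0 in the 6 KPF libraries.

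Snai1 (ENSMUSG00000042821; GRCm38 chr2:167538195-167542814, plus strand) encodes Snail, a direct repressor of Cdh1 that gastrulation requires. It was at 39.0, 96.1 and 52.9 CPM in KPYYF libraries 4449, 4891 and 4938, and at 2.13 CPM (lowest), 20.9 CPM (median) and 36.2 CPM (highest) in KPF libraries. The groups did not overlap but almost met, since the lowest KPYYF library was 1.08 times the highest KPF library, 4435. The log2 fold change was 1.59 ± 0.64 (SE, 95% interval 0.19 to 2.98), with an unadjusted p of 0.0289 and an adjusted p of 0.241. The exact permutation test gave p = 0.0595, and 0.0357 with 4504h and 4504s summed. KPF library 4269 held the lowest value, and without it the log2 fold change was 1.35 (adjusted p = 0.179).

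The Snai1 window is shown because it is the 1 window of a member, of 7 windows over 4 members, that holds the E-box its own protein family binds. It is RefSeq sequence of GRCm38.p6, chr2:167537945-167538224, plus strand, and the match begins at position -126 from the start.
Snai1: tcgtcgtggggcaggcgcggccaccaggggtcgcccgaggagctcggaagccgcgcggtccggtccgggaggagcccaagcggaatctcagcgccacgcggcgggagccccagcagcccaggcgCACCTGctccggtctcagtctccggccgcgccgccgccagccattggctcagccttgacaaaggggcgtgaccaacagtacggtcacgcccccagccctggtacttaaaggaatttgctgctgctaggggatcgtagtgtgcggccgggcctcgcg

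Snai2 (ENSMUSG00000022676; GRCm38 chr16:14705852-14709385, plus strand) encodes Slug, the paralog of neural crest and basal epithelia. It was at 3.79, 24.1 and 3.83 CPM in KPYYF libraries 4449, 4891 and 4938, and at 0.568 CPM (lowest), 4.49 CPM (median) and 11.7 CPM (highest) in KPF libraries. KPYYF library 4891 alone was above the KPF range, and KPF libraries fell apart into 3 at 7.76 to 11.7 CPM and 3 at 0.568 to 1.21 CPM. The log2 fold change of 1.01 ± 1.07 (SE, adjusted p = 0.711) became -0.46 without library 4891. Libraries 4504h and 4504s, of 1 mouse number, held 9.48 and 0.568 CPM.

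Zeb1 (ENSMUSG00000024238; chromosome 18) encodes the factor that, with miR-200, forms a known double-negative loop. It was at 30.6, 77.3 and 51.3 CPM in KPYYF libraries 4449, 4891 and 4938, and at 12.4 CPM (lowest), 26.8 CPM (median) and 44.7 CPM (highest) in KPF libraries. The groups overlapped, with 2 KPF libraries above the lowest KPYYF library. Zeb1 had the smallest standard error of the 6, 0.43, and its log2 fold change was 0.88 (95% interval -0.05 to 1.80, adjusted p = 0.339). The exact permutation p was 0.107, and the log2 fold change without KPYYF library 4891 was 0.50 (adjusted p = 0.695).

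Zeb2 (ENSMUSG00000026872; GRCm38 chr2:44983632-45117395, minus strand) encodes Sip1, which is also active in macrophages, lymphocytes and glia. It was at 114, 51.4 and 72.6 CPM in KPYYF libraries 4449, 4891 and 4938, and at 31.7 CPM (lowest), 53.7 CPM (median) and 177 CPM (highest) in KPF libraries. The groups overlapped fully, and the highest value of all 9 libraries was that of KPF library 4601. The log2 fold change was 0.15 ± 0.51 (SE, 95% interval -0.96 to 1.26, adjusted p = 0.931), and the exact permutation p was 0.607. Its sign turned without KPF library 4435 (-0.01) and without KPYYF library 4449 (-0.21).

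Zeb2 in library 4601 stood beside macrophage markers. All 14 of the macrophage markers were highest in library 4601, their sum was 6.29 times that of the next library, and Zeb2 was 2.26 times the next KPF library. Zeb1 was lowest of all 9 libraries in the same library. In the other 5 KPF libraries Zeb2 was 50.5 ± 19.2 CPM (SD), against 79.3 ± 31.8 CPM (SD, n = 3) in KPYYF libraries, and the log2 fold change without library 4601 was 0.67 (adjusted p = 0.446). The antisense gene Zeb2os (ENSMUSG00000052248), which lies within Zeb2, had 28.4 CPM in library 4601, at most 1.12 CPM in the other KPF libraries and 3.43, 0.436 and 0.765 CPM in KPYYF libraries 4449, 4891 and 4938. Since the strand setting of the counting is not given, reads of Zeb2 and Zeb2os cannot be told apart with certainty. The part of macrophage RNA in Zeb2 of library 4601 was not tested. The KPYYF libraries, at 498 to 893 CPM of macrophage markers, were within or below the range of the other KPF libraries.

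**Figure D4:**
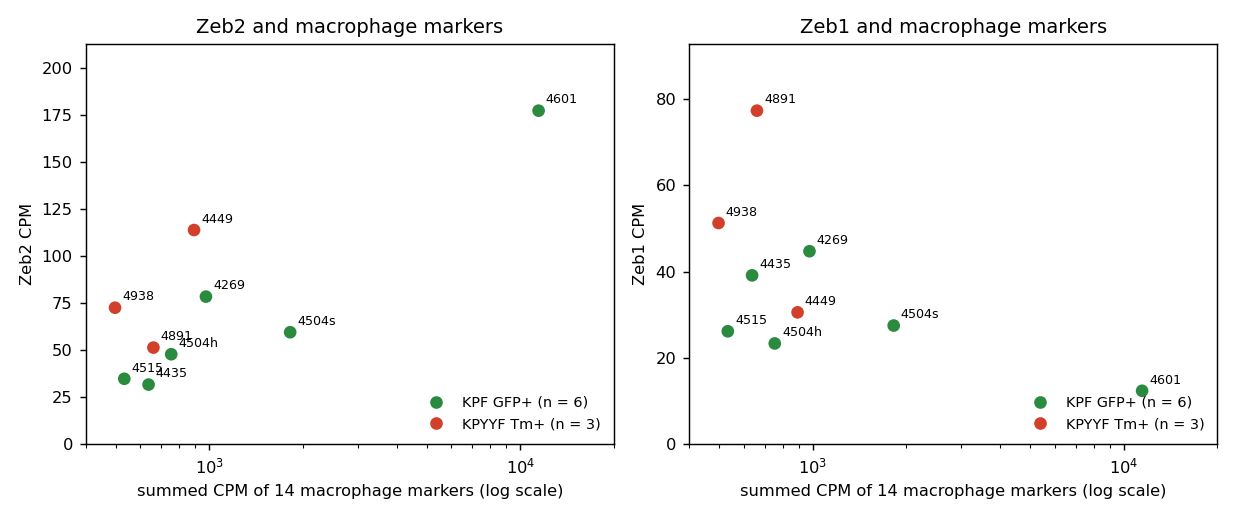
CPM of Zeb2 (left) and Zeb1 (right) against the summed CPM of 14 macrophage markers (log scale) in each library, KPF green (n = 6) and KPYYF red (n = 3). Library 4601, at 11450 CPM of markers, has the highest Zeb2 (177 CPM) and the lowest Zeb1 (12.4 CPM).

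Genes whose log2 CPM followed a member most closely over the 9 libraries were, for Twist2, Cct5 (Pearson r = 0.985), Prelid3b (0.983) and Six4 (0.964). For Twist1 they were Elovl6 (0.967), Crtap (0.966) and Fbxo5 (0.965), and for Snai1 Adgrl1 (0.987), Dusp9 (0.977) and Nusap1 (0.976). For Snai2 they were Bms1 (0.947), Cbx3 (0.930) and Mcm6 (0.908), for Zeb1 Phf13 (0.941), Gpsm2 (0.927) and Alkbh5 (0.905), and for Zeb2 Bod1l (0.939), Itsn2 (0.923) and Clec4n (0.921). The points are 9 libraries that include the group difference, and each value is the highest of 8836 or, for Snai2, 8837 genes, so these are descriptions. No 2 members shared a gene among these. Of these 18 genes, Six4, a homeobox factor, is the one that passed the test over all genes (log2 fold change 3.74, adjusted p = 0.0351, and up to 0.0969 with 1 library left out), and it too is among the factors that the study chose on these libraries. Between members, Twist2 went most closely with Snai1 (r = 0.79 over 9 libraries, 0.70 within the 6 KPF libraries) and with Twist1 (0.76 and 0.67). In KPF libraries Twist2 had only 1 to 81 reads, and its highest values were in 4504h and 4504s, of 1 mouse number.

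Twist proteins bind DNA with E proteins and lose them to Id proteins, and of 13 listed genes of this group 9 were tested and none passed in either direction (background 1.1%), with a median log2 fold change of -0.08. At an unadjusted p under 0.05, 3 were higher and 2 lower, and DESeq2 called 2 higher and 2 lower. Its extremes were Hand2, a bHLH factor of heart and limb, at -5.02 (adjusted p = 0.249), and Id3, an inhibitor without a DNA-binding region, at 2.40 (adjusted p = 0.116). Id3 was at 213, 2284 and 241 CPM in KPYYF libraries 4449, 4891 and 4938, so that 1 library carried its value. The 3 E proteins were named after their values were seen. Tcf12 was at 130, 167 and 171 CPM in KPYYF libraries and at most 117 CPM in KPF libraries (log2 fold change 0.98, adjusted p = 0.128), Tcf4 had 1.08 (adjusted p = 0.119) and Tcf3 had -0.08 (adjusted p = 0.949).

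Other transcription factors tied to EMT numbered 15, of which 9 were tested, 1 passed as higher (background 0.305%) and none as lower, with a median of 1.29. At an unadjusted p under 0.05, 5 were higher and 1 lower, and DESeq2 called 3 higher. The 1 was Prrx1, a homeobox factor of limb and head mesenchyme, which rose from 28.2 ± 20.4 CPM (SD, n = 6) to 340 ± 235 CPM (SD, n = 3), with 70.8, 503 and 446 CPM in KPYYF libraries 4449, 4891 and 4938. Its log2 fold change was 3.59 (adjusted p = 0.0454), and among the 9 fits that left out 1 library it passed only without KPYYF library 4449 (adjusted p at most 0.136 in the others). No gene of this list passed with 4504h and 4504s summed, with upper quartile normalization, among the 6 libraries rich in Xist or with no filter on low counts, where its median was -0.57. Prrx1 is likewise among the factors that the study chose on these libraries.

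Corepressors and chromatin enzymes that Snail and Zeb proteins recruit were all measured, 18 of 18, and none passed (median -0.24). At an unadjusted p under 0.05, 2 were higher and 2 lower, and DESeq2 called 1 lower. The extremes were Ajuba, a LIM protein that links Snail to a methyltransferase, at -2.80 (adjusted p = 0.119), and Suv39h1, which methylates histone H3, at 1.12 (adjusted p = 0.161). Ajuba was at 0.118, 5.12 and 6.34 CPM in KPYYF libraries 4449, 4891 and 4938, below every KPF library (lowest 18.0 CPM).

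Genes that set the stability of the 6 proteins, such as Gsk3b and its ubiquitin ligase partner Btrc, were 18 of 18 measured with none called (median 0.10), with 1 gene higher at an unadjusted p under 0.05 and none called by DESeq2. Their extremes were the deubiquitinase Usp51 and the kinase Pak1, both at -0.38, and the kinase Prkd1 at 1.46 (adjusted p = 0.723). Of 27 upstream inducers, such as TGF-beta ligands, their receptors and Smad proteins, 26 were tested, none passed as higher and 2 as lower (background 0.794%), Yap1 itself and Wnt5a, a non-canonical Wnt ligand (log2 fold change -3.14, adjusted p = 0.0357). At an unadjusted p under 0.05, 5 were lower and none higher, and DESeq2 called 4 lower. Yap1 is deleted by design and enters each of these counts of lower genes, so Wnt5a is the only other inducer that passed. With 4504h and 4504s summed, 1 of the 26 passed, which was Yap1. Both Yap1 and Wnt5a lost their call with limma-voom, and Wnt5a passed only without KPF library 4515 and without KPF library 4601 when 1 library was left out.

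The genes of miR-200a, miR-200b, miR-429, miR-200c, miR-141 and miR-205, which restrain Zeb1 and Zeb2, had no read in any library. Libraries primed on poly(A) tails do not measure mature miRNA, so nothing follows on their level.

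Epithelial genes that Snail, Slug, Zeb and Twist proteins are known to repress mostly had log2 fold changes below 0. Of 30 genes, all tested, 29 had a log2 fold change below 0, with a median of -2.42 against -0.07 over all genes, 5 passed as lower (background 0.794%) and none as higher. In 11 of them the KPYYF libraries all lay below the KPF libraries, which held for 5.18% of all genes tested. At an unadjusted p under 0.05, 16 genes of the list were lower and 1, Cldn1, was higher, against 10% and 6.1% of all genes tested. The list was written with earlier results of these data known, so its direction is not independent evidence. It shares Epcam, Krt8, Krt18, Krt19, Cdh1, Muc1 and Cldn4 with the ductal tumor cell markers above, so both lists in part report the same values. Muc1, an apical mucin, had the lowest log2 fold change of those that passed, -4.11 (adjusted p = 0.0422), followed by Mal2, a protein of apical transport, with -3.26 (adjusted p = 0.0444). The highest were Krt18, a keratin of simple epithelia, with -2.49 (adjusted p = 0.0141), and Cdh1, which encodes E-cadherin, with -2.92 (adjusted p = 0.0351). Dsp, desmoplakin of desmosomes, was the fifth (-3.02, adjusted p = 0.0357) and was named after its values were seen.

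Levels of these 5 genes were separated between the groups. Cdh1 was at 245, 98.0 and 93.8 CPM in KPYYF libraries 4449, 4891 and 4938 and at 332 CPM (lowest), 1047 CPM (median) and 2100 CPM (highest) in KPF libraries. Among KPF libraries, all 5 genes were lowest in 4504h, the KPF library with the highest Twist1 and Twist2. The summed level of the whole list was 3088 CPM in 4504h and 6372 CPM in 4504s, which had the next highest Twist2 (5.68 CPM). In KPF libraries 4269, 4435, 4515 and 4601 it was 5654, 5658, 11970 and 4300 CPM. A link between these levels and Twist genes was not tested. Of the whole list, 14 genes passed as lower with DESeq2, which called 928 of all genes lower. None passed without KPYYF library 4891 or without KPYYF library 4938. Only 1 passed without KPF library 4435, without KPF library 4504s or among the 6 libraries rich in Xist. Over the fits with 1 library left out, the log2 fold change of Cdh1 ran from -3.52 to -2.61 and its adjusted p went up to 0.114, and that of Krt18 ran from -2.84 to -2.32 with an adjusted p of at most 0.0557. Of these 9 fits, Krt18 passed in 7, Cdh1 and Dsp in 4 each (adjusted p of Dsp up to 0.136), Mal2 in 3 (up to 0.158) and Muc1 in 2 (up to 0.139). The median of the list ran from -3.52, without KPYYF library 4449, to -1.97.

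Mesenchymal genes that the 6 factors are known to raise had log2 fold changes on both sides of 0. Of 19 genes, all tested, 10 were above 0 and 9 below, with a median of 0.02, and none passed. At an unadjusted p under 0.05, 2 were higher and 1 lower, and DESeq2 called 2 higher and 1 lower. Postn, a matrix protein of fibroblasts, was lowest at -4.78 (adjusted p = 0.0933), and Pdgfra, a growth factor receptor of mesenchyme, was highest at 2.90 (adjusted p = 0.105). Vim, which encodes vimentin, was at 745, 1688 and 2927 CPM in KPYYF libraries 4449, 4891 and 4938 and at 599 to 2352 CPM in KPF libraries (log2 fold change 0.35, adjusted p = 0.794), and was named after its values were seen.

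**Figure D5:**
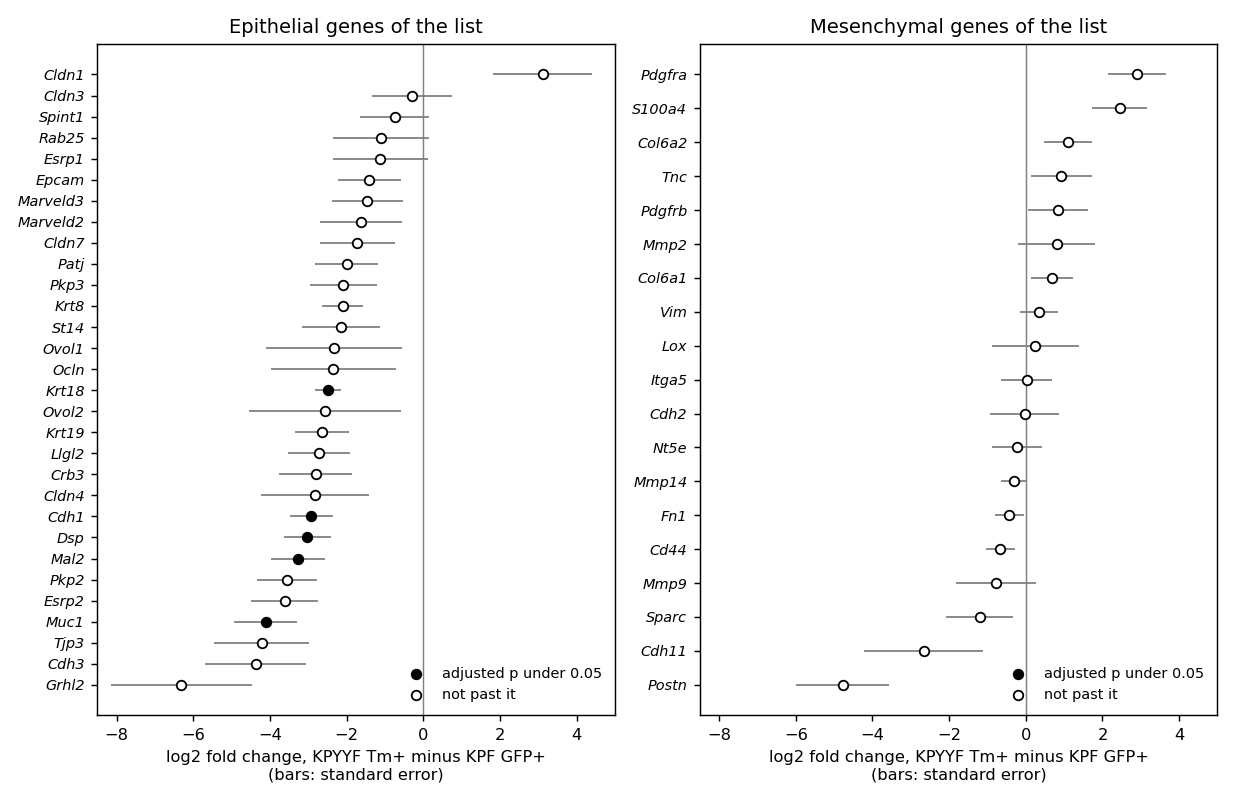
Log2 fold change, KPYYF Tm+ minus KPF GFP+, with its standard error for the 30 epithelial genes (left) and the 19 mesenchymal genes (right) of the lists. Filled points have an adjusted p under 0.05; the epithelial genes lie left of 0 but for Cldn1, and the mesenchymal genes lie on both sides of 0.

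Promoter windows were read for the E-box CACCTG, in either direction, over 250 bases before and 50 bases after the start. It was found in 14 of the 17 epithelial list genes that had a window (82.4%), in 1 of 12 mesenchymal list genes (8.33%) and in 22.6% of all 27025 genes with a window. With at least 2 matches there were 8 epithelial list genes (47.1%), against 3.32% of all genes. Genes of that list are in part known for these very sites, so the shares describe the list and not its response. Spint1, Ovol2 and Cldn1 held no match. The list genes without a matched window were Cdh1, Esrp1, Esrp2, Llgl2, Pkp2, Pkp3, Mal2, St14, Grhl2, Ovol1, Krt19, Marveld3 and Cdh3.

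The windows of the 3 genes that fell and had one are shown because each holds the E-box. They are RefSeq sequence of GRCm38.p6, plus strand, up to 30 bases past the start, with capitals for CACCTG or CAGGTG. That of Muc1 (chr3:89228806-89229085) has matches at -234 and -70 from the start, that of Dsp (chr13:38151044-38151323) has 1 match that begins 3 bases after the start, and that of Krt18 (chr15:102027966-102028245) has 1 at -214. A match is a description of the letters and does not show that a factor binds there.
Muc1: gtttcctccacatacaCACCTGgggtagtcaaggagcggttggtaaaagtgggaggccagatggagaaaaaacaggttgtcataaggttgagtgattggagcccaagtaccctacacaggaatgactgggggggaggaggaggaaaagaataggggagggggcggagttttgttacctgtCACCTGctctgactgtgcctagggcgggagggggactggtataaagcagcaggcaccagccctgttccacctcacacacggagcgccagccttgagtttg
Dsp: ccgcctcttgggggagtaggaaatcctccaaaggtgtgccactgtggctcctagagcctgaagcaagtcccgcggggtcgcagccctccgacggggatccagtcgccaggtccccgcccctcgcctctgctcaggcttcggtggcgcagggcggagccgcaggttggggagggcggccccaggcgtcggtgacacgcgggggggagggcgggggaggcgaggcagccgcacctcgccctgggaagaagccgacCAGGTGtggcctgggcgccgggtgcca
Krt18: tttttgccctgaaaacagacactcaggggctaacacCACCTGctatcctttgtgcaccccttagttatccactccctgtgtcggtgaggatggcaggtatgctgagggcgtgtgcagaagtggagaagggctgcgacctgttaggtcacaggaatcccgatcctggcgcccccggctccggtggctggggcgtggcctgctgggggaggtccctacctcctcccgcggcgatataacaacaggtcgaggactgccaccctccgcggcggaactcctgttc

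Markers of stromal, immune, Schwann and acinar cells moved as follows. Fibroblast markers had a median log2 fold change of 0.24, none of 15 passed (3 higher and 1 lower at an unadjusted p under 0.05, and 1 each with DESeq2), and their sums overlapped between the groups. Pericyte markers had a median log2 fold change of -1.36, with 5 of 8 below 0, 2 lower at an unadjusted p under 0.05 and 2 called lower by DESeq2. Among them Cspg4, a proteoglycan of pericytes and of some tumors, rose (log2 fold change 4.08, adjusted p = 0.0351, and 2.58 with 0.279 without library 4938), with 25.2, 6.43 and 103 CPM in KPYYF libraries 4449, 4891 and 4938, and the summed level overlapped between the groups (37.6 to 232 CPM in KPF and 55.1 to 169 CPM in KPYYF libraries). None of the macrophage, lymphocyte, endothelial and acinar markers tested (14, 3, 8 and 8) passed, but most had log2 fold changes below 0 (14, 3, 6 and 5). Their medians were -2.04, -4.16, -1.09 and -0.22. At an unadjusted p under 0.05, 1, 1, 2 and 0 of them were lower, and DESeq2 called 0, 1, 2 and 0 lower. Of 7 Schwann cell markers S100b, the 1 that could be tested, was lower (-3.84, adjusted p = 0.0357, up to 0.128 with 1 library left out). The part of stromal RNA in the level of the 6 genes was not tested beyond these sums.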

How the data were processed

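RNA of sorted tumor cells of 6 KPF and 3 KPYYF libraries was measured with Lexogen QuantSeq Forward, a kit that reads 3' ends. The deposited files hold raw counts per Ensembl gene in the layout of HTSeq, without normalization. The submitters' processing notes name STAR, HTSeq and mm10, with no version; strand setting and annotation are not given in the sources used here. The methods text speaks of BeadChip hybridization, yet the files hold whole-number counts. Reads without a unique alignment, which reach no gene, were 43.8 to 53.4% of each file, those on no feature 8.63 to 16.0% and ambiguous ones 0.231 to 0.312%.

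Symbols and coordinates came from GENCODE M21 (GRCm38) and matched 47224 of 47643 identifiers. The 14105 genes that reached 100 counts over the 9 libraries were TMM-normalized and tested with edgeR 4.0.16 (quasi-likelihood, robust, R 4.3.3), two-sided, KPYYF minus KPF, without covariates, with Benjamini-Hochberg adjustment over all of them at 0.05. The SE was taken as log2 fold change over the square root of F. The common biological coefficient of variation was 0.825. Log2 CPM used a prior count of 2, and exact permutation tests used all 84 splits of 9 libraries into 6 and 3. The scripts were tested on simulated data. Each library has its own mouse number, except that 4504h and 4504s share one. The main fit and the 84 splits count both as separate libraries, so p-values may in part measure spread within a mouse or technical spread.

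The members and all lists were chosen with earlier results of these data known. Lists were written by hand. Named were the members, Yap1, from each list the 2 lowest and 2 highest log2 fold changes among genes past the threshold, or else its extremes, antisense genes of members, and for each member the 3 genes with the highest Pearson r (mean of at least 10 CPM). Gm29101, Gm29100, Dsp, the E proteins and Vim were added after their values were seen. Alternatives were DESeq2 1.42.0, RLE and upper quartile normalization, no filter, filterByExpr, limma-voom 3.58.1 with quality weights, 4504h and 4504s summed, libraries with at least 1000 Xist reads, other prior counts, no TMM factor and each library left out. Protein sequences were not used here. One further allele that both groups carry is not reported here. Figures were drawn with matplotlib 3.10.9.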

Additional observations from a re-analysis of the deposited data

Results flagged for a closer look

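Of 12 values tested for standing far from the rest of their group, 3 were flagged, and all 3 came from KPF library 4601. Zeb2 was at 177 CPM there and at most 78.5 CPM in the 5 other KPF libraries. Zeb2os was at 28.4 CPM there and at most 1.12 CPM in the others. The strand setting of the counting is not given, so reads of Zeb2os and of Zeb2 cannot be told apart with certainty. The log2 ratio of Zeb2 to Zeb1 was 3.82 there and at most 1.11 in the others. In each, the gap to the next library, divided by the range of the group, was above Dixon's 95% critical value for 6 samples. Chance alone marks about 1 in 20 groups, and the 3 values share a library and a gene, so they are not 3 separate events. The same library holds 11450 CPM of macrophage markers, and the part of that in these values was not tested.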

How the results depend on the processing

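No paired analysis was possible because the labels give the groups no shared replicate numbers. Over 17 alternatives, Zeb1, Snai1 and Twist1 kept a log2 fold change above 0 and an adjusted p above 0.05 in all, and Twist2 kept its direction in all and its call in 12. Twist2 lost the call with no filter on low counts (5.58, adjusted p = 0.0716, members called 0) and in 4 of the 9 fits with 1 library left out (5.34 to 6.26). Leaving out 1 library gave -0.21 to 0.67 for Zeb2, where the fits without 4435 (-0.01) and 4449 (-0.21) turned the sign, and -0.46 to 1.41 for Snai2, where the fit without 4891 (-0.46) did, and 0 or 1 member called. The Zeb2 to Zeb1 difference of -0.54 ran from -1.19 to 0.051 with 1 library left out, above 0 without 4891, and the Snai2 to Snai1 difference of -0.72 ran from -1.30 to 0.089, above 0 without 4269. The Twist2 to Twist1 difference was 4.01 (exact permutation p = 0.1, the smallest that 3 against 3 allows) among libraries with at least 1000 Xist reads. The KPF libraries among these include both 4504h and 4504s, of 1 mouse number. The exact p of the Twist2 to Twist1 difference adjusted over the pairs was 0.0536 with 4504h and 4504s summed. It was up to 0.107 with 1 library left out, where fewer splits exist. The exact p of Snai1 went from 0.0595 to 0.0476 with a prior count of 5 and without TMM factors. Genes called higher were 43, and 269 with DESeq2, 88 with no filter, 25 with 4504h and 4504s summed, 6 among the Xist libraries and 6 to 75 with 1 library left out. Genes called lower were 112, and 928 with DESeq2, 219 with no filter, 44 with limma-voom, 31 among the Xist libraries and 13 to 198 with 1 library left out. The cause of these moves was not tested. With 3 KPYYF libraries and a biological coefficient of variation of 0.825, the intervals of the 5 members that did not pass are wide: that of Snai2 spans -1.30 to 3.32.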
